A study of Mus musculus with 9 samples.

Results

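De novo lipogenesis, the making of new fatty acids from acetyl-CoA, was followed here through 10 genes in mouse liver: Srebf1, Acly, Acaca, Acacb, Fasn, Elovl6, Scd1, Me1, Thrsp and Pnpla3. The genes were taken by name, with no threshold on their values, by a choice made with earlier results of these data known, and all 10 were found among the 21873 genes of the deposited mRNA table. All 10 also passed the filter on low values (mean FPKM over the 9 libraries not under 0.1), as did 14094 genes in all. Pnpla3 did so only through the group in which it was high.

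The livers came from male C57BL/6 mice that were 8 weeks old at the start, in 3 groups of 3. The control group was given normal saline intraperitoneally for 8 weeks. The TAA group was given thioacetamide (TAA), a hepatotoxin that causes liver fibrosis, every 3 days for 8 weeks and was killed 72 h after the last dose. The recovery group had the same 8 weeks of TAA and then 8 weeks without it, so that its mice were older than those of the other groups when sampled, and it had no saline group of its own age. No group carried an altered gene. Each library was made from whole liver, so a change in the number of cells of a type and a change in RNA per cell cannot be told apart.

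Fatty acid synthesis turns surplus carbohydrate into fat. ATP citrate lyase splits cytosolic citrate into acetyl-CoA, acetyl-CoA carboxylase turns acetyl-CoA into malonyl-CoA, and fatty acid synthase joins these units into palmitate at the cost of NADPH, after which elongase and desaturase act on the chain. In hepatocytes the pathway is switched on by insulin and feeding, chiefly through the transcription factor SREBP-1c, a product of Srebf1, and through the sugar-responsive factor ChREBP.

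Values are FPKM, fragments counted per transcript length and library size, divided by 1 factor per library (median of ratios) so that the typical gene has the same level in all libraries, here called scaled FPKM. These factors ran from 0.827 to 0.878 for control, from 1.29 to 1.38 for TAA and from 0.893 to 0.907 for recovery libraries. Relative to the FPKM as deposited, TAA against control differences are thereby 0.64 lower (log2), and changes are given relative to the typical gene. Depth is not in the table, and spacing of its lowest values put it at about 26840000 to 40730000 fragments per library. A gene was called a differentially expressed gene (DEG) at an adjusted p under 0.05 and a fold change of at least 2, with limma on log2(scaled FPKM + 0.1) and adjustment over all 14094 genes tested. 1 library stood apart: TAA mouse 3 had a summed level of 8 skeletal muscle markers of 44.6 scaled FPKM, whereas the other 8 libraries lay between 0.160 and 0.426.

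The promoter windows of 4 members that were DEGs in both TAA comparisons are given first, since this pathway is known to be switched at transcription. They are the 250 bases before the start site in RefSeq's table (GRCm38.p6), read 5′ to 3′ on the strand of the gene, and 0 of their bases lie in an annotated exon (the window of Thrsp, a DEG in both as well, has 180 exonic bases and is not shown). Capitals mark exact matches, on either strand, to the CCAAT box (CCAAT, or ATTGG on the other strand) and the GC box (GGGCGG, or CCGCCC).
Fasn, chr11:120824548-120824797, minus strand: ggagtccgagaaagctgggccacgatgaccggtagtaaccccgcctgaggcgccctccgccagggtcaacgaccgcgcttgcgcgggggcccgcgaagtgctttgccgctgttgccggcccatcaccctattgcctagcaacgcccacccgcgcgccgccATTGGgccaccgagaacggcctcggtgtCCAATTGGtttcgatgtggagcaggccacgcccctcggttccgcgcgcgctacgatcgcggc
Acly, chr11:100528001-100528250, minus strand: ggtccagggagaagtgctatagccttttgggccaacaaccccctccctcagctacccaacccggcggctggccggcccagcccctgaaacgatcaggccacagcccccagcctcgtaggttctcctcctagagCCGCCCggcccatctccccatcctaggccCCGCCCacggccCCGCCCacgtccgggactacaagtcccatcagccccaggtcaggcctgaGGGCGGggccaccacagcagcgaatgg
Pnpla3, chr15:84167566-84167815, plus strand: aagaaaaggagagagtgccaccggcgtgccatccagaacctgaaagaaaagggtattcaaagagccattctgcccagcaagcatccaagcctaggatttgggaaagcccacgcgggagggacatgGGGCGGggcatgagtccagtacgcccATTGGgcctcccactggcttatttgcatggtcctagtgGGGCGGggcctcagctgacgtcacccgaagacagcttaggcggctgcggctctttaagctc
Srebf1, promoter 2 of 3, chr11:60220628-60220877, minus strand: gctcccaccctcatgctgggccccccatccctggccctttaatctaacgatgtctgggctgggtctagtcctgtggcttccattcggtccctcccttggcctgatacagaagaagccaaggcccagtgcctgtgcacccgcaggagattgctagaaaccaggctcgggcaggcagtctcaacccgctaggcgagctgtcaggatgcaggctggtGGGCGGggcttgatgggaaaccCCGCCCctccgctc

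Fasn had 3 CCAAT matches, of which the one at -62 to -58 and the one at -59 to -55 from the start site overlap on opposite strands. Acly had 4 GC boxes, and Pnpla3 had 1 CCAAT match and 2 GC boxes. The printed Srebf1 window had 2 GC boxes and no CCAAT match. Promoters 1 and 3 of Srebf1, also with 0 exonic bases, had 1 CCAAT match each, and promoter 3 had 2 GC boxes. Which of these promoters starts the transcript of SREBP-1c was not assigned, and promoter 2 is not printed as that one. Over all members, 9 of 10 had an entry in the table, with 12 promoters, and Scd1 had none. A CCAAT match was present in 7 of the 12 promoters, belonging to 6 members, where 33.8% of all 32851 promoters of this length held one. A GC box was present in 5 of the 12, where 32.7% of all held one, and TATAAA in 1, that of Acacb, where 12.4% of all held it. The SREBP element searched as TCACNCCAC and the E-box CACGTG were in 0 of the 12, where 1.05% and 6.02% of all promoters held them. These matches are letters only, and their absence says nothing about binding elsewhere or to other spellings.

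At an adjusted p under 0.05 in limma, 7 of 10 members were higher in TAA-fibrotic than in control liver and 7 were lower after withdrawal. Scd1, Me1 and Acacb passed in neither comparison. Elovl6 in the first (0.86) and Acaca in the second (-0.89) stayed under the fold limit. Of 10 members, 6 were DEGs with a higher level in TAA than in control liver, and 0 had a lower one. Of all genes tested, 17.0% were called higher and 8.02% lower. The 6 were Pnpla3, Thrsp, Fasn, Acly, Srebf1 and Acaca. Pnpla3 passed the filter only through its TAA values, so its part in this count and in those that follow is a description. The 3 TAA livers lay above all 3 control livers for 7 members, where 32.6% of all tested genes did so. The median difference over the members was 1.16 on the log2 scale, against 0.02 over all genes tested. Acacb, Scd1 and Me1 overlapped between the groups.

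**Figure D1:**
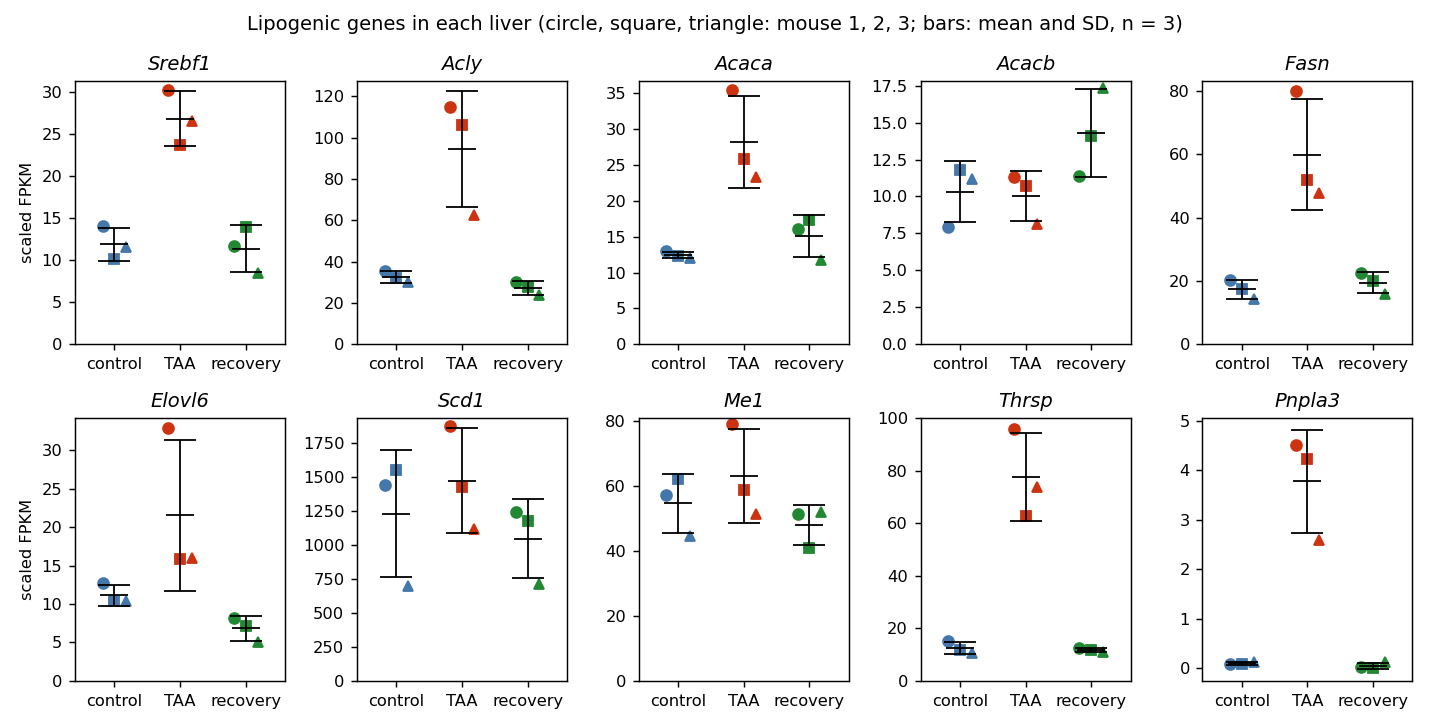
Scaled FPKM of the 10 lipogenic genes (linear axis, 1 panel per gene) in each control, TAA and recovery liver, with the mean and SD of 3 mice per group as bars. For Thrsp the 3 TAA livers lie between 62.8 and 95.9 and all other livers at or under 15.2. For Scd1 the groups overlap, and for Acacb the control livers overlap those of each other group, while the recovery livers lie above the TAA livers.

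Srebf1 (ENSMUSG00000020538, chr11:60199089-60222581) encodes SREBP-1, the transcription factor that drives most genes of this pathway. Its level was 14.0, 10.1 and 11.5 scaled FPKM in the 3 control livers, 30.2, 23.7 and 26.5 in the TAA livers, and 11.7, 13.9 and 8.40 in the recovery livers. All TAA livers were above all others, and the control and recovery livers were interleaved. Srebf1 rose by 1.17 ± 0.14 (SE) on the log2 scale in the TAA group, with an adjusted p of 0.000382, and it fell by 1.26 from the TAA to the recovery group, with an adjusted p of 0.000953. The table has 1 value per gene and does not separate the transcripts of SREBP-1a and SREBP-1c.

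Acly (ENSMUSG00000020917, chr11:100476353-100528000) encodes ATP citrate lyase. Its control values were 35.4, 32.1 and 30.1 scaled FPKM, its TAA values 115, 106 and 62.7, and its recovery values 30.1, 27.9 and 23.8. TAA mouse 3 was the lowest of its group and still above every control liver. Acly rose by 1.49 ± 0.22 (SE) in the TAA group (adjusted p = 0.000939) and fell by 1.75 in the recovery group (adjusted p = 0.000463). The recovery mean was 0.26 below the control mean on the log2 scale, which did not pass the test (adjusted p = 0.221). The 3 recovery livers were all below the 3 control livers, but only just, at 30.07 for recovery mouse 1 against 30.13 for control mouse 3. On the FPKM as deposited these 2 livers changed order, at 27.04 and 26.47.

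Of the acetyl-CoA carboxylases, Acaca was called higher in the TAA group and Acacb was not. Acaca (ENSMUSG00000020532, chr11:84129672-84401651), the cytosolic form that supplies malonyl-CoA for synthesis, was at 13.0, 12.4 and 12.0 scaled FPKM in control liver, 35.6, 25.8 and 23.3 in TAA liver, and 16.2, 17.4 and 11.8 in recovery liver. It rose by 1.15 ± 0.15 (SE) in the TAA group (adjusted p = 0.000608). Without TAA mouse 1, the highest, the difference was 0.97 and under the fold limit. From the TAA to the recovery group Acaca differed by -0.89 with an adjusted p of 0.00635, a change that also stayed under a fold of 2. Acacb (ENSMUSG00000042010, chr5:114146535-114250761), the mitochondrial form whose malonyl-CoA restrains fatty acid oxidation, was at 7.96, 11.8 and 11.2 in control, 11.3, 10.7 and 8.13 in TAA and 11.4, 14.1 and 17.3 in recovery liver. The control and TAA livers overlapped, and the difference was -0.03 with a 95% confidence interval from -0.47 to 0.40 on the log2 scale (adjusted p = 0.894). On the FPKM as deposited that difference was 0.60, on FPKM divided by their sum 0.79, and after quantile normalization 0.12. All 3 recovery livers were above all 3 TAA livers for Acacb, by 0.50, with an adjusted p of 0.0503, and this sign too turned on the FPKM as deposited and on FPKM divided by their sum.

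A ratio of these genes within a library does not depend on how libraries are scaled against each other. Acaca to Acacb was 1.63, 1.05 and 1.07 in the control livers, 3.15, 2.41 and 2.87 in the TAA livers, and 1.42, 1.23 and 0.681 in the recovery livers. The mean ratio was 1.25 ± 0.328 (SD, n = 3) in control, 2.81 ± 0.371 in TAA and 1.11 ± 0.382 in recovery liver. All 3 TAA ratios were above the other 6. A two-sided exact permutation test gave p = 0.1 for TAA against control and for recovery against TAA, which is the smallest p that 3 against 3 allows, and p = 0.7 for recovery against control.

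Fasn (ENSMUSG00000025153, chr11:120805846-120824547) encodes fatty acid synthase, the enzyme that makes palmitate. It was at 20.4, 17.5 and 14.3 scaled FPKM in control, 79.9, 52.0 and 47.7 in TAA and 22.5, 20.0 and 15.96 in recovery liver. The lowest TAA liver was above the highest of the other 6 livers, which were mixed. Fasn rose by 1.76 ± 0.21 (SE), a fold of 3.38 (adjusted p = 0.000364), and fell by 1.59 in the recovery group (adjusted p = 0.000549).

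Elovl6 (ENSMUSG00000041220, chr3:129532355-129638495) encodes the elongase that takes palmitate to stearate. It was at 12.8, 10.4 and 10.3 scaled FPKM in control, 32.9, 15.82 and 15.96 in TAA and 8.22, 7.21 and 5.05 in recovery liver. TAA mouse 1 stood well above the other TAA livers, and the coefficient of variation in that group was 45.5%, the largest of the 10 members there. The TAA difference of 0.86 passed on the adjusted p (0.0310) and not on the fold. Without TAA mouse 1 it was 0.51. From the TAA to the recovery group Elovl6 fell by 1.58 ± 0.30 (SE, adjusted p = 0.00337). The recovery livers were all below the control livers as well, by 0.72 (95% confidence interval of the log2 difference from -1.18 to -0.26), with an adjusted p of 0.0973.

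Scd1 (ENSMUSG00000037071, chr19:44394455-44407879), stearoyl-CoA desaturase, makes oleate and palmitoleate and was the most abundant member per length in every library. It was at 1444, 1554 and 697 scaled FPKM in control, 1879, 1431 and 1116 in TAA and 1246, 1180 and 716 in recovery liver. The groups overlapped, and mouse 3 was the lowest of each. The TAA difference was 0.31 with a 95% confidence interval from -0.46 to 1.09 (adjusted p = 0.456), and the recovery difference from TAA was -0.50 (adjusted p = 0.149). Quantile normalization gave 1.78 for TAA against control and FPKM divided by their sum gave 1.14, both past the threshold, and the FPKM as deposited gave 0.95.

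Scd2, the desaturase paralog that adult liver expresses little of, moved otherwise. It was at 0.9997, 1.46 and 1.42 scaled FPKM in control, 19.8, 23.3 and 11.7 in TAA and 1.46, 2.23 and 2.06 in recovery liver. Scd1 to Scd2 was 1444, 1064 and 489 in the control livers, 95.03, 61.5 and 95.2 in the TAA livers, and 852, 528 and 347 in the recovery livers. All 3 TAA ratios were below the other 6 (two-sided exact permutation p = 0.1 against each group, the smallest possible, and p = 0.3 for recovery against control). The paralogs are similar in sequence, and how fragments that match both were counted is not given in the sources used here, so the low Scd2 levels beside the far higher Scd1 are uncertain.

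**Figure D2:**
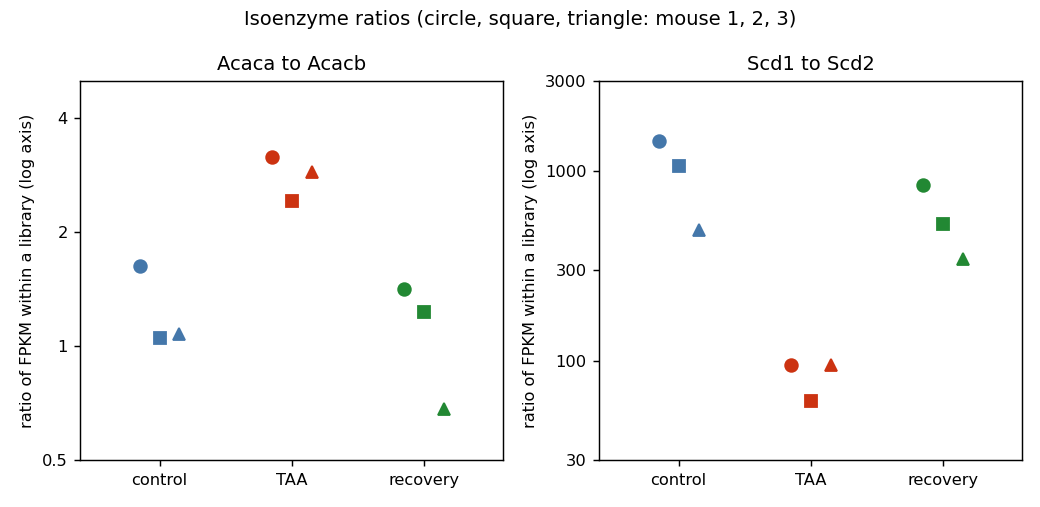
Ratio of FPKM within each library (log axis) for Acaca to Acacb and for Scd1 to Scd2, 1 point per mouse, by group. The TAA livers lie apart from the other 6 in both panels, above for Acaca to Acacb (2.41 to 3.15) and below for Scd1 to Scd2 (61.5 to 95.2).

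Me1 (ENSMUSG00000032418, chr9:86581371-86695953), malic enzyme, gives cytosolic NADPH. It was at 57.2, 62.3 and 44.7 scaled FPKM in control, 79.1, 58.7 and 51.5 in TAA and 51.3, 40.9 and 52.0 in recovery liver. The groups overlapped, with a TAA difference of 0.20 (95% confidence interval from -0.23 to 0.63, adjusted p = 0.399) and a recovery difference from TAA of -0.38 (adjusted p = 0.101). On FPKM divided by their sum both passed, at 1.02 and -1.14.

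Thrsp (ENSMUSG00000035686, chr7:97412938-97417730), thyroid hormone responsive protein or Spot 14, is a nuclear protein that goes with lipogenic activity. It was at 15.2, 11.7 and 10.7 scaled FPKM in control, 95.9, 62.8 and 74.0 in TAA and 12.4, 11.9 and 10.9 in recovery liver. The TAA livers stood far above the rest, and the recovery livers lay inside the control range. Thrsp rose by 2.62 ± 0.18 (SE), a fold of 6.13 (adjusted p = 3.3e-05), and fell by 2.69 in the recovery group (adjusted p = 1.4e-05).

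Pnpla3 (ENSMUSG00000041653, chr15:84167837-84187236), a lipid droplet protein with lipase and acyltransferase activity, is a target of SREBP-1c. It was close to undetected outside the TAA group, at 0.0832, 0.0768 and 0.132 scaled FPKM in control and 0.0235, 0 and 0.117 in recovery liver. In TAA liver it was at 4.52, 4.23 and 2.59. With the estimated depths and the annotated exon length, these are about 3, 4 and 6 fragments in the control livers, 1, 0 and 7 in the recovery livers, and 366, 337 and 213 in the TAA livers. Pnpla3 rose by 4.27 ± 0.25 (SE, adjusted p = 1.55e-05) and fell by 4.76 (adjusted p = 3.35e-05). It ranked 56 among 14094 genes by rise in the TAA group and 16 by fall afterwards. Its means were 0.0975 scaled FPKM in control and 0.0468 in recovery liver, so it passed the filter of 0.1 only through its TAA values. Its calls and ranks are therefore a description. The size depends on the pseudocount: the rise was 2.10 with a pseudocount of 1 and 5.13 with 0.01, and the ratio of the mean scaled FPKM was 38.8.

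**Figure D3:**
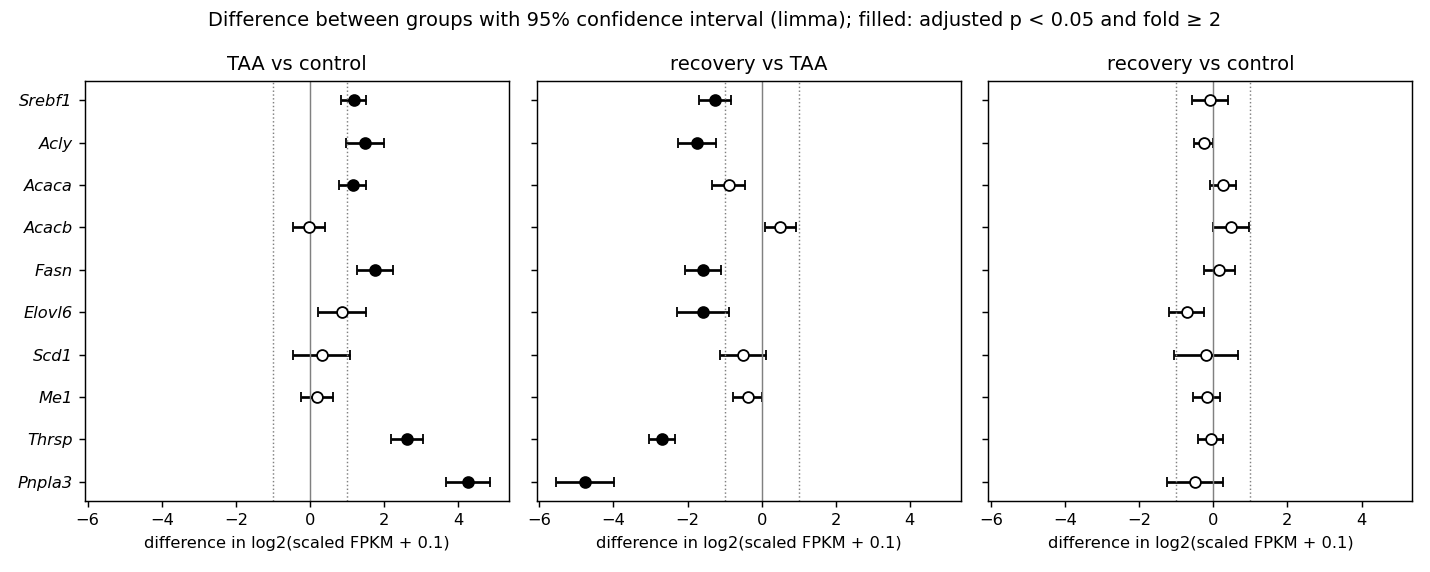
Difference of log2(scaled FPKM + 0.1) between groups for each gene, with its 95% confidence interval from limma, for TAA against control, recovery against TAA and recovery against control (filled points: adjusted p under 0.05 and a fold of at least 2). The filled points are 6 to the right in the first panel, 6 to the left in the second and 0 in the third.

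After withdrawal, 6 members were DEGs lower in the recovery group than in the TAA group and 0 were higher. Of all genes tested, 14.3% were called lower and 7.12% higher. The 6 were Pnpla3, Thrsp, Acly, Fasn, Elovl6 and Srebf1. The call of Pnpla3, tested only through its TAA values, is a description here too. The recovery livers lay below all TAA livers for 7 members, where 31.0% of all tested genes did so. The median over the members was -1.42, against -0.01 over all genes. This comparison and the one before it share the TAA libraries, so that a high TAA value enters both. In each TAA comparison the 6 DEGs were called on all 4 scalings that were tried. The FPKM as deposited and FPKM divided by their sum raise TAA values against control, with medians over all genes of 0.63 and 0.83. These scalings could thus hardly remove the call of a gene high in TAA. With any 1 library left out, the 6 stayed called in the recovery comparison, and 5 did in the comparison with control, Acaca being lost without TAA mouse 1. Without TAA mouse 3, the liver with muscle markers, 7 members were called in each.

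Between the recovery and the control group, 0 of 10 members were DEGs, and 0 had an adjusted p under 0.05 in limma. Of all genes tested, 0.582% were called higher, 0.412% lower, and 2.70% had an adjusted p under 0.05. At an unadjusted limma p under 0.05 there was 1 member, Elovl6, lower in recovery. The median over the members was -0.13, against 0.01 over all genes. Over the members the differences ran from -0.72 for Elovl6 to 0.47 for Acacb. An interval bounds what could remain for its own gene only. For Thrsp the difference was -0.08 with a 95% confidence interval from -0.41 to 0.26, and for Fasn 0.17 from -0.25 to 0.58. For Srebf1 it was -0.08 from -0.58 to 0.41, and for Scd1 -0.19 from -1.06 to 0.68. The sign for Thrsp turned on the FPKM as deposited, where the difference was 0.000785.

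The share of the TAA change still present after recovery was computed for the 6 members called higher, as the recovery minus control difference over the TAA minus control difference on the log2 scale. It was 22.5% ± 25.5 for Acaca, 9.41% ± 14.3 for Fasn, -2.87% ± 3.49 for Thrsp, -7.24% ± 31.3 for Srebf1, -11.6% ± 13.5 for Pnpla3 and -17.3% ± 11.5 for Acly (SD over 3 recovery mice). With 1 library left out in turn, the share ran from 13.0% to 37.0% for Acaca, 1.96% to 17.2% for Fasn, -7.11% to 2.59% for Thrsp, -21.1% to 9.72% for Srebf1, -19.2% to -6.09% for Pnpla3 and -22.3% to -11.03% for Acly, so that the sign for Thrsp and Srebf1 rests on single libraries. A share of 0% is the control level and a negative share is below it. The median was -5.05% over these members, with Pnpla3 included, against 17.2% over all 2389 genes called higher. The members were taken for their rise, so these shares are a description without a test.

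The same mice were often at the ends of their group. TAA mouse 1 was the highest of its group for 10 of 10 members, whereas it was the highest for 34.3% of all tested genes. TAA mouse 3 was the lowest for 7 members (34.7% of all genes), control mouse 3 for 7 (31.5%) and recovery mouse 3 for 7 (32.0%). Members are not independent of each other, and these counts have no test.

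Across the 9 livers, Srebf1 and Acaca had the most similar course among the members (root mean square difference of the centred log2 values of 0.22), followed by Acly and Fasn (0.25). Over 11100 genes whose mean FPKM was 1 or more, the genes most like Srebf1 included Cks1b (0.13) and Ahnak (0.17). Those most like Fasn were Tbc1d19 (0.19), Rdh11 (0.21) and Car2 (0.21), and those most like Scd1 were Pfkfb3 (0.25), Sri (0.27) and Dap3 (0.27). These are descriptions over 9 libraries in 3 groups.

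Around the core genes, the enzymes that supply acetyl-CoA and NADPH were partly higher too. Of 9 genes in this list, 4 were called higher in the TAA group and 1 lower, with a median of 0.48. The oxidative pentose phosphate enzymes Pgd and G6pdx, which yield NADPH, rose by 2.63 (adjusted p = 3.62e-06) and 2.16 (adjusted p = 1.07e-05). Acss2, which makes acetyl-CoA from acetate, rose by 1.14 and the pentose phosphate enzyme Tkt by 1.02. Pcx, pyruvate carboxylase, which makes oxaloacetate, fell by 1.96 (adjusted p = 4.29e-06). These 5 kept their call on the 4 scalings, of which the FPKM as deposited and FPKM divided by their sum favour higher calls in TAA. Acss2 lost its call without TAA mouse 1 (0.94) and Tkt without TAA mouse 2 (0.93), both under the fold limit. After withdrawal 3 were called lower (Pgd, G6pdx and Acss2) and 1 higher (Pcx), and between recovery and control 0 of 9 were called. Over all tested genes, 17.0% were called higher and 8.02% lower for TAA against control. The shares were 7.12% and 14.3% for recovery against TAA, and 0.582% and 0.412% for recovery against control. They apply to the counts of each list that follows as well.

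Regulators of the pathway other than Srebf1 formed a list of their own. Of 16 genes, 0 were called higher and 2 lower in the TAA group, with a median of -0.07. This balance turned with the scaling, to 4 higher and 0 lower on FPKM divided by their sum. The 2 were Insig2, which holds SREBP in the endoplasmic reticulum, at -1.37, and the coactivator Ppargc1b, at -1.34; on the FPKM as deposited they were -0.73 and -0.72 and not called, where Mid1ip1, an activator of acetyl-CoA carboxylase, was called higher at 1.26 (0.63 and not called on scaled FPKM). Mlxipl, which encodes ChREBP, was at 13.1, 13.9 and 14.3 scaled FPKM in control and 7.46, 7.002 and 7.84 in TAA liver, without overlap, a difference of -0.88 under the fold limit (-0.25 on the FPKM as deposited). From TAA to recovery Insig2 rose by 3.10 (adjusted p = 2.25e-05) and Insig1, the other SREBP retention protein and itself an SREBP target, fell by 1.15 (adjusted p = 0.000605). Both also differed between recovery and control, Insig2 by 1.73 (adjusted p = 0.0162) and Insig1 by -1.17 (adjusted p = 0.0122), calls that were lost for Insig2 without control mouse 3 or recovery mouse 2 or 3 (adjusted p up to 0.0791) and for Insig1 without recovery mouse 2 (0.0628), with differences of at least 1.59 and at most -1.05 throughout. Insig2 was at 88.9, 135 and 106 scaled FPKM in control, 41.9, 52.5 and 33.3 in TAA and 287, 383 and 425 in recovery liver. Insig1 was at 104, 83.0 and 80.3 in control, 104, 92.6 and 68.6 in TAA and 38.9, 37.0 and 42.3 in recovery liver. Neither gene overlapped between the recovery livers and the other 6.

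Other elongases and desaturases went both ways. Of 13 genes, 12 were tested (Scd4 was under the filter), of which 1 was called higher and 3 lower in the TAA group, with a median of -0.45. The counts were 2 higher and 1 lower on the FPKM as deposited, 3 and 1 on FPKM divided by their sum, and 1 and 1 after quantile normalization. Scd2 rose by 3.68 (adjusted p = 3.58e-05). Elovl3, an elongase of saturated and monounsaturated very long chains, was at 55.3, 81.7 and 68.9 scaled FPKM in control, 0.0924, 0.0986 and 0.104 in TAA and 145, 138 and 219 in recovery liver. It fell by 8.42 in the TAA group (adjusted p = 2.99e-07), rose by 9.69 afterwards (adjusted p = 3.65e-07) and was 1.27 above control in recovery (adjusted p = 0.0398), all on the log2(scaled FPKM + 0.1) scale, which understates the first 2. Elovl2 and Elovl5, the elongases of polyunsaturated chains, were called lower at -1.55 and -1.42 (-0.91 and -0.79 on the FPKM as deposited, not called). In recovery against TAA 2 were called higher (Elovl3, and Elovl5 at 1.10, which was 0.97 and not called without TAA mouse 3) and 1 lower (Scd2), a balance that turned to 1 higher and 2 lower on the FPKM as deposited and after quantile normalization, and to 1 and 4 on FPKM divided by their sum. Elovl3 was the only gene of the list called between recovery and control, and that call was lost with any 1 library left out (adjusted p up to 0.108, differences of 1.06 to 1.41).

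Triglyceride assembly joins the new fatty acids to glycerol. Of 9 genes, 0 were called higher and 3 lower in the TAA group, with a median of -0.94. Gpat4, which starts glycerolipid synthesis, fell by 1.79 (adjusted p = 7.43e-06). Agpat3, the next acyltransferase, and Dgat1, which closes the triglyceride, were at -1.24 and -1.07. On the FPKM as deposited, only Gpat4 of these was called, at -1.16, and Gpam, the mitochondrial glycerol-3-phosphate acyltransferase, was called higher at 1.01 (0.37 on scaled FPKM), and on FPKM divided by their sum Gpat4 was -0.97 and not called. Without control mouse 2 Dgat1 was -0.95 and under the fold limit. After withdrawal 3 were called higher (Gpat4, Agpat2 and Agpat3) and 0 lower, against 1 higher and 2 lower both on the FPKM as deposited and on FPKM divided by their sum, and 1 and 1 after quantile normalization. In the scaled FPKM, 0 of 9 were called between recovery and control, where 0.582% of all tested genes were called higher and 0.412% lower.

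The fasting response list holds genes that rise when insulin is low. Of its 8 genes, 4 were called lower and 1 higher in the TAA group, with a median of -1.04. Pck1, the gluconeogenic PEP carboxykinase, fell by 2.53 (adjusted p = 7.31e-06), and the hormone gene Fgf21 by 1.93 (adjusted p = 0.00035). Cpt1a, which admits fatty acids to mitochondrial oxidation, fell by 1.71 (adjusted p = 1.82e-05). Pdk4, which blocks pyruvate dehydrogenase, rose by 2.33 (adjusted p = 0.000289) and stayed 2.42 above control in recovery (adjusted p = 0.0161), a call lost without recovery mouse 2 or 3 (adjusted p up to 0.0769). On the FPKM as deposited 3 were called lower and 2 higher, Pdk4 and Igfbp1, and on FPKM divided by their sum 2 lower and 2 higher. In recovery against TAA 5 were called higher and 0 lower, among them Fgf21 at 3.41. These counts were 3 and 0 on the FPKM as deposited, on FPKM divided by their sum and after quantile normalization. Feeding state at sampling is not given in the sources used here beyond free access to food, and its part in these values was not tested.

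**Figure D4:**
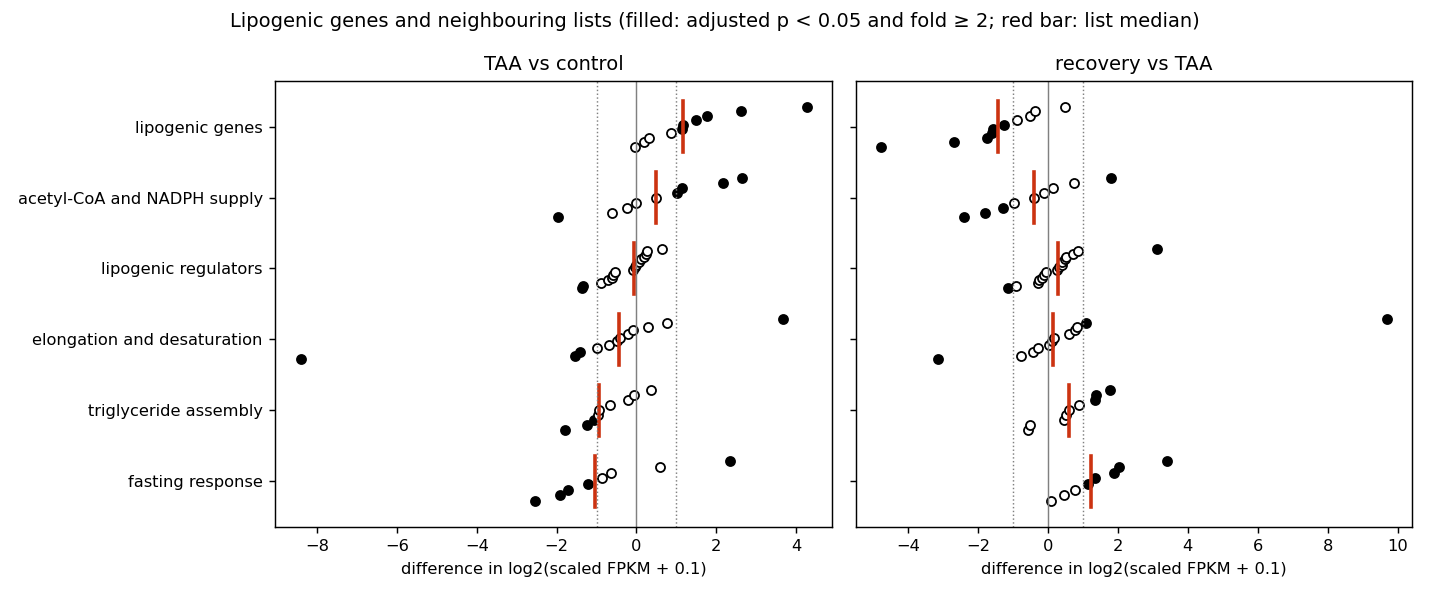
Difference of log2(scaled FPKM + 0.1) for each gene of the lipogenic set and 5 neighbouring lists, for TAA against control and recovery against TAA (filled points: adjusted p under 0.05 and a fold of at least 2; red bars: list medians). In the first panel the lipogenic median is 1.16 and the triglyceride assembly and fasting response medians are -0.94 and -1.04.

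Clock genes also differed between the groups, and the hour of sampling is not given in the sources used here. Of 16 clock genes, 2 were called higher and 5 lower in the TAA group against control, 3 higher and 4 lower from TAA to recovery, and 2 higher and 7 lower between recovery and control. The lower calls in the TAA group depended on the scaling, with 2 higher and 0 lower on the FPKM as deposited, 3 and 0 on FPKM divided by their sum, and 0 and 2 after quantile normalization. From TAA to recovery the first of these gave 2 higher and 7 lower and the second 1 and 7. Between recovery and control the circadian output factor Dbp was -3.21 and the clock activators Npas2 and Arntl were 3.03 and 2.90, with adjusted p of 0.0216, 0.0161 and 0.0145. Of the 9 calls in this comparison 2 held with each library left out in turn. Their part in the lipogenic values was not tested.

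Cell type markers moved with the TAA group as well. The summed scaled FPKM of 7 hepatocyte markers (1 more of the list was not analysed here) was 41566 to 46056 in control, 23265 to 30417 in TAA and 51368 to 53394 in recovery liver, and 4 of the 7 were called lower in TAA. Alb makes up most of this sum. On the FPKM as deposited Alb was 23017 to 25978 in control and 23924 to 29976 in TAA liver. The lower sum thus depends on the scaling, while Apoa1, Apoa2, Apob and Serpina1a were below all control livers on the deposited FPKM too. On the FPKM as deposited only Apoa2 was called lower, and after quantile normalization 0 were and Ttr and Fgb were called higher. All 8 myofibroblast markers were called higher in TAA, with sums of 9.56 to 12.0 in control, 189 to 279 in TAA and 10.97 to 22.1 in recovery liver. All 6 cholangiocyte markers were called higher, with sums of 15.7 to 21.0, 303 to 447 and 27.96 to 38.6, and 3 of 6 macrophage markers, with sums of 82.7 to 107, 155 to 218 and 109 to 145, of which Itgam was lost without TAA mouse 3 (adjusted p = 0.0528). None of the 8 skeletal muscle markers was called in any comparison. The part of these in the lipogenic values was not tested.

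Adipocytes express the same lipogenic enzymes, and their markers were low. The sum of 8 adipocyte markers was 21.0 to 28.9 scaled FPKM in control, 10.4 to 14.9 in TAA and 15.6 to 38.5 in recovery liver, most of it from Cidec and Fabp4, which liver cells also express. Of the 3 markers tested, Cidec and Cfd were called lower in TAA and Fabp4 was called higher, at 1.05, 1.88 and 1.86 scaled FPKM in control and 3.42, 3.46 and 3.53 in TAA liver, by 1.12 (adjusted p = 0.00395), a call lost without control mouse 1 (0.86) and after quantile normalization (0.83). On the FPKM as deposited Cidec was -0.53 and not called. Adipoq, Plin1, Lep, Retn and Adig did not pass the filter on low values: Lep was 0 in every library, and Adipoq was 0 in TAA mice 1 and 2 and 0.0142 in TAA mouse 3. Cfd (adipsin) was 0 in all 3 TAA livers.

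**Figure D5:**
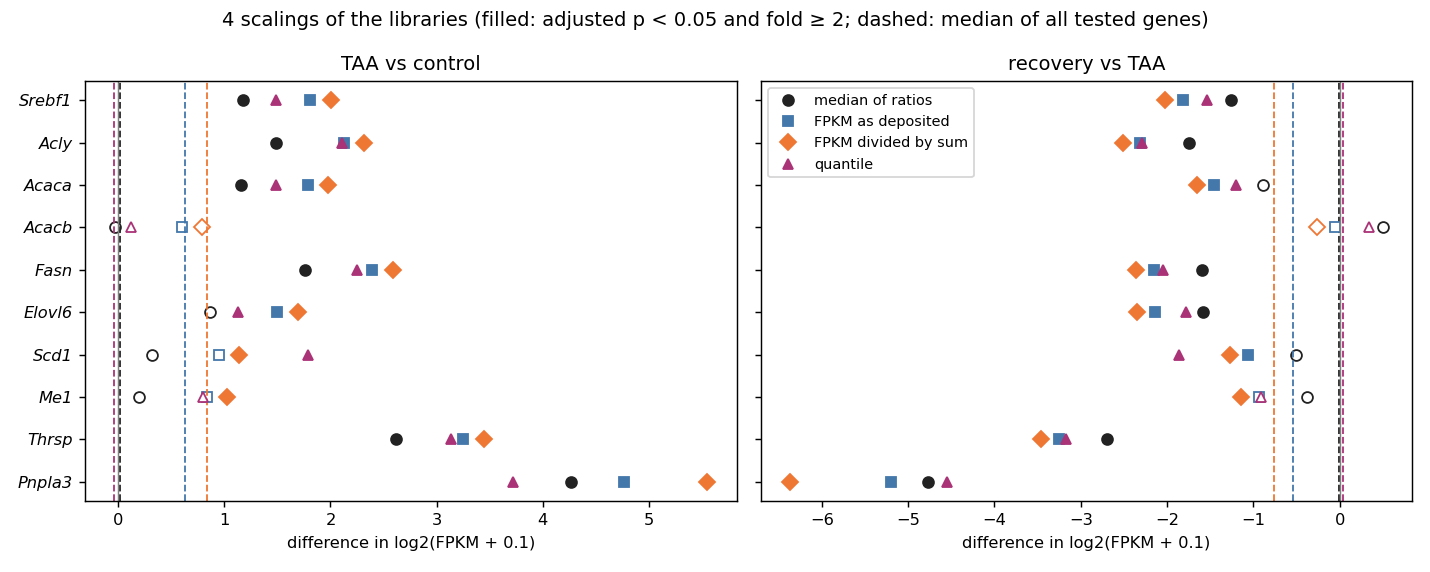
Difference of log2(FPKM + 0.1) for the 10 genes under 4 scalings of the libraries, for TAA against control and recovery against TAA (filled points: adjusted p under 0.05 and a fold of at least 2; dashed lines: median of all tested genes under each scaling). The deposited FPKM and FPKM divided by their sum shift genes and median together, to a median of 0.63 and 0.83 in the first panel, and Acacb, open throughout, lies on both sides of 0.

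Members are counted from their own exons for the most part. In the annotation, 6 of 10 shared no exonic base with another gene, and the largest overlap was 6.78% of the exonic bases of Pnpla3 with a transcript on the same strand.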

How the data were processed

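RNA of 9 mouse livers was sequenced as 150 bp paired ends. Per the labels and methods, the authors mapped reads to mm10 (GRCm38) with HISAT2 (2.2.1), counted fragments with featureCounts (1.5.0-p3) and deposited 1 table of FPKM per gene. Strandedness, multi-mapped fragments and depth are not given in the sources used here. Each FPKM column was divided by its median-of-ratios factor (over genes above 0 in all libraries). Genes whose mean FPKM reached 0.1 were tested pairwise on log2(scaled FPKM + 0.1) with limma (3.58.1, R 4.3.3; lmFit, eBayes with a trend, Benjamini-Hochberg over all genes tested). This replaces the count model of the study, since FPKM are not counts. The fit was tested on simulated data. Ratios within a library had two-sided exact permutation tests. The members and lists were chosen with earlier results of these data known. All members are named, and of each other list up to 4 called genes with the largest change. Mlxipl, Mid1ip1, Gpam, Igfbp1 and single markers were named after their values were seen. Other pseudocounts, filters, scalings and fits, a replicate block and leaving out each library were tried. Some genes near the pathway are not reported here and were taken out of the lists, for a reason unrelated to their values.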

Additional observations from a re-analysis of the deposited data

How the results depend on the processing

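Each member difference was recomputed under 16 other settings, 160 values per comparison. With 1 library left out, 5 to 7 members were called for TAA against control, 6 to 7 for recovery against TAA and 0 for recovery against control. Testing against a fold of 2 (treat) gave 3 and 2 in the first pair, where that test asks for more than the fold itself. Among the scalings, FPKM as deposited gave 7 and 8 members, quantile normalization 8 and 8, and FPKM divided by their sum 9 and 9. Over all genes the calls higher and lower in TAA were 2389 and 1131, against 4382 and 421 as deposited, 5687 and 343 by sum, 1591 and 1266 by quantile, and 890 and 890 with a pseudocount of 1. From TAA to recovery they were 1003 and 2014, against 409 and 3728 as deposited, 315 and 5064 by sum, 1132 and 1390 by quantile, and 749 and 711 with a pseudocount of 1. The sign turned for some differences that did not pass the test. For TAA against control, Acacb became 0.60 as deposited, 0.12 by quantile and 0.79 by sum, and ran from -0.21 to 0.11 with 1 library left out, as did Scd1 from -0.055 to 0.52. For recovery against TAA, Acacb became -0.057 as deposited and -0.26 by sum. For recovery against control, Thrsp became 0.000785 as deposited, and with 1 library left out Srebf1 ran from -0.25 to 0.11, Scd1 from -0.56 to 0.063 and Thrsp from -0.18 to 0.071.

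Whether samples with the same number share more than that number is not given in the labels. The correlation of their deviations from the group means was -0.07 to 0.02 for TAA against control. It was -0.04 to -0.02 for recovery against TAA and -0.02 to 0.12 for recovery against control. For libraries of the first-named group, only TAA mouse 3 (with control mouse 3) and recovery mouse 1 (with control mouse 1) correlated best with the same number. With the replicate number as a block, 6, 6 and 0 members were called. Between recovery and control the calls over all genes then went from 82 higher and 58 lower to 9 and 8. The same comparison gave 15 to 69 genes higher and 16 to 41 lower with 1 library left out, and 151 and 84 with all 9 libraries in 1 fit. With 3 mice a group, any difference inside a stated interval remains compatible with the values. By the estimated depths, Pnpla3 outside the TAA group rests on about 0 to 7 fragments a library.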
